A study of Mus musculus with 18 samples.

Results

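The transcripts of 10 genes that coat, fuse or break down lipid droplets were followed in mouse liver: the perilipins Plin2, Plin4 and Plin5, the fusion proteins Cideb and Cidec, the lipases Pnpla2, Lipe and Mgll, the lipase inhibitor G0s2 and the lipase activator Abhd5. They were taken by symbol as a named family, and no threshold on a measured value entered the choice. The choice was made with earlier results of these data known. All 10 members were among the 10938 genes with enough reads to be tested, of 52230 genes summed. The libraries came from livers of 18 mice of the GCKR-P446L-EMI-B6N line, 1 library per mouse, and the question was how a single residue of GKRP, the glucokinase regulatory protein encoded by Gckr, changes liver gene expression in each sex. The 4 male and 5 female PP mice carried the Gckr-446P form, with proline at residue 446, and the 4 male and 5 female LL mice carried the Gckr-446L knock-in form, with leucine there. All mice were fed a standard chow diet, and no mouse received another treatment. By the labels the mice were 9 to 14 weeks old, with a mean age of 12.25 weeks for male PP, 13.25 for male LL, 11 for female PP and 12.4 for female LL, although the series text states 14 weeks throughout. The feeding state and the hour of the cull are not given in the sources used here. In such bulk tissue, fewer cells of a type and less RNA per cell cannot be told apart.

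Hepatocytes store surplus fatty acids as triglyceride inside lipid droplets, whose surface is covered by perilipins. Plin2 is the main coat protein of the hepatocyte droplet and is protected from breakdown while it is bound there, Plin5 ties droplets to mitochondria, and Plin4 is best known from adipose tissue. Cideb and Cidec belong to the CIDE family: Cideb takes part in droplet enlargement and in lipid loading of very low density lipoprotein, and Cidec, also called FSP27, lets small droplets fuse into large ones. Stored triglyceride is released in steps by adipose triglyceride lipase, the product of Pnpla2, by hormone-sensitive lipase, the product of Lipe, and by monoacylglycerol lipase, the product of Mgll. The first of these steps is held back by G0s2 and switched on by Abhd5, also called CGI-58. Several of these genes are known targets of the fatty acid receptor PPARα, which binds repeats of the AGGTCA half-site, and carbohydrate-responsive ChREBP and its partner Mlx bind pairs of E-boxes close to CACGTG.

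All 10 members had at least 1 entry in the RefSeq promoter table for build GRCm38.p6, whose windows run from 250 bases before to 50 bases after the start of the gene. Both motifs were looked for on both strands, and the motifs and the promoters printed here were picked after the sequences had been seen. CACGTG lay in a window of 3 members, Plin2, Mgll and Lipe, against 7.15% of 32851 promoters, and AGGTCA lay in a window of 3 members, Plin2, Plin5 and Abhd5, against 16.3%. Counted by gene, 8.09% and 18.1% of 27025 genes had a match. The windows of Plin2 and Mgll are shown because these genes differed between the sexes, and those of Plin5 and Abhd5 because they carry the half-site. Capitals mark CACGTG, or AGGTCA read on either strand, where the other strand gives TGACCT, each sequence reads 5′ to 3′ on the strand of its gene, and a match is a description of the letters and not of binding.
Plin2: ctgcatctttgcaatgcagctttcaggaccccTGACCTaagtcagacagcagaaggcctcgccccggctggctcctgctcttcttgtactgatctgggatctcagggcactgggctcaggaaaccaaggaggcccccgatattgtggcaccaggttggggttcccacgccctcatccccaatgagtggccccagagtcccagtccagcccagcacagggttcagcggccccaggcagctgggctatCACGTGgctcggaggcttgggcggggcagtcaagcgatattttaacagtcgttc
Plin5: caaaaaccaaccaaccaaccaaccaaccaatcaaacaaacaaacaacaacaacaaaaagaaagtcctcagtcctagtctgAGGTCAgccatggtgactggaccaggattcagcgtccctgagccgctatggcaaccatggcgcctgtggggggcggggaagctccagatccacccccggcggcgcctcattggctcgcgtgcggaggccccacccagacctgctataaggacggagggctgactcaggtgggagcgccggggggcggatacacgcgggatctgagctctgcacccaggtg
Abhd5: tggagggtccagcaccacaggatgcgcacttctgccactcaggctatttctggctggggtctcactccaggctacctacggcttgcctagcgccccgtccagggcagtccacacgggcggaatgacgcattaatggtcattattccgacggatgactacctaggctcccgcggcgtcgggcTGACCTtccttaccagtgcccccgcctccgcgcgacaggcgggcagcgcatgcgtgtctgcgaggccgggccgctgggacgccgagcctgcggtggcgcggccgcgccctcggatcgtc
Mgll: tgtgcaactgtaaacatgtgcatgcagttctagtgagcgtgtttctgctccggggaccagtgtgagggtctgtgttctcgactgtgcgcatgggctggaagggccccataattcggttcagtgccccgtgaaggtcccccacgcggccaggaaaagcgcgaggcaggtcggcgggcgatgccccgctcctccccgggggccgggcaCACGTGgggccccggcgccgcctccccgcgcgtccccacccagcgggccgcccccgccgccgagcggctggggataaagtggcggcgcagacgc
The Plin2 window is chr4:86670010-86670309 on the minus strand, with CACGTG 4 bases and TGACCT 218 bases before the start. The Plin5 window is chr17:56117499-56117798 on the minus strand, with AGGTCA 170 bases before the start. The Abhd5 window is chr9:122351366-122351665 on the plus strand, with TGACCT 69 bases before the start. The Mgll window is chr6:88724162-88724461 on the plus strand, with CACGTG 44 bases before the start, and in Lipe the match lay 155 bases before the start.

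The libraries held 3794671 to 6613905 estimated counts. The sex transcripts Xist and Ddx3y matched the label in 18 of 18 libraries, and Gckr itself was at 400 to 779 normalised counts in all of them, which cannot check the genotype because the edit changes a codon and not the amount of transcript measured. Libraries differed in fragment length, estimated from Salmon's effective lengths, with means of 518 and 407 bases in male PP and male LL and of 448 and 292 in females with PP and LL, and LL was shorter than PP in females (exact permutation test, p = 0.0159) but not detectably so in males (exact permutation test, p = 0.286). Mitochondrial genes took 12.4% of counts in female LL against 10.2% in female PP mice (exact permutation test, p = 0.0317), and 12.6% in male LL against 9.48% in male PP mice (exact permutation test, p = 0.171). All 8 hepatocyte markers, among them Alb and Apoa1, were detected in every group.

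Measured per unit of transcript length, as TPM (a transcript's share of all transcripts of its library, scaled to a fixed total), the members spanned more than 3 orders of magnitude. Plin2 was the highest of the 10 at 594 ± 277 TPM over all 18 libraries, with a range of 183 to 1131, and it made up 96.2% to 99.1% of the TPM of the 3 perilipins in every library. G0s2 was at 227 TPM with a range of 53.8 to 644, and Cideb was at 137 with a range of 68.1 to 196. The lipases were lower: Mgll was at 33.3 TPM, Pnpla2 at 17.7 and Lipe at 4.06. Plin5 was at 10.1 TPM and Abhd5 at 8.82, whereas Cidec at 1.4 and Plin4 at 0.291 were at the foot of the order. The ranges over libraries of neighbours in this order overlapped except between Cideb and Mgll. The first 3 genes were above the last 5 in every library. Overlap of ranges does not compare genes within a library. Within libraries, Pnpla2 was above Abhd5 in all but female LL mouse 2. Plin5 lay above Pnpla2 in some libraries and below it in others, and likewise for Abhd5.

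**Figure D1:**
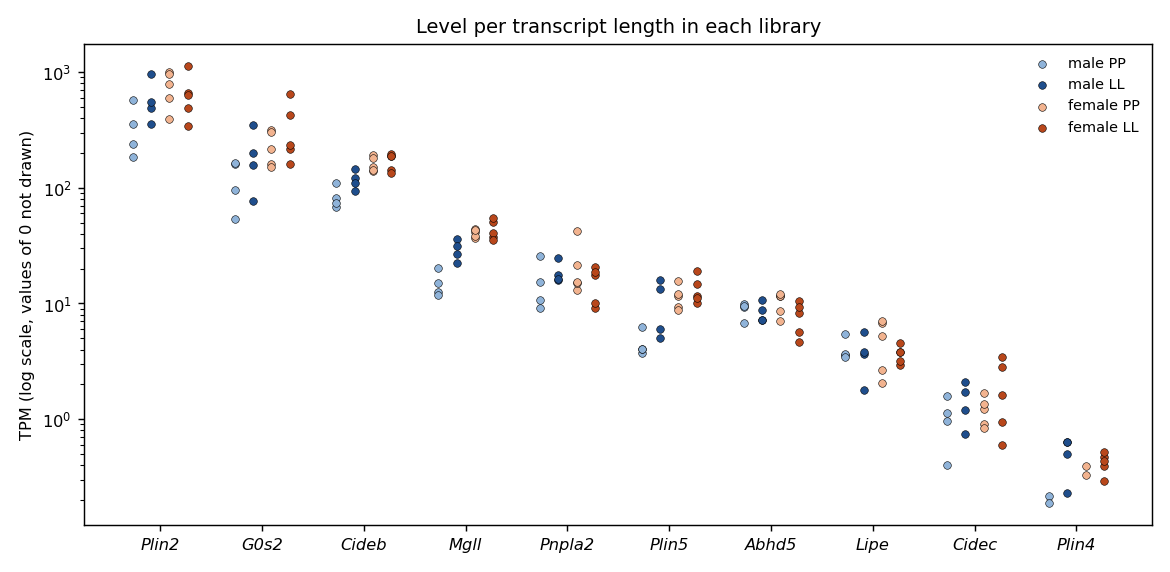
Levels of the 10 members in TPM on a log axis, with 1 point per library coloured by group; libraries at 0 are not drawn. Plin2 lies highest, at 183 to 1131 TPM, and Plin4 lowest, at 0 to 0.640 TPM with 5 libraries at 0.

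The members were compared between genotypes within each sex by DESeq2, with a gene called at a Benjamini-Hochberg adjusted P below 0.05 over all genes and a fold of 1.3 or more, or of 0.7 or less. No member was called by LL genotype in males or in females, in a background where 0.283% of the 10938 genes were called in males and 0.658% in females, and edgeR also called 0 members in both sexes. At an unadjusted p below 0.05 there were 2 members in males, Plin2 and Plin5, against 7.83% of all genes, and 3 in females, Cideb, Cidec and G0s2, against 13% of all genes. In males 7 of 10 members had a higher estimate in LL, with a median log2 fold change of 0.32 against 0.00 for all genes tested, and in females 8 of 10, with a median of 0.28 against 0.01. With the genotype effect averaged over the sexes, 0 members were called against 0.978% of genes, 4 passed an unadjusted p of 0.05 (Plin2, Plin5, Cideb and G0s2) against 13.8%, and the median was 0.35 against 0.00 for all genes. The genotype effects did not differ detectably between the sexes for any member: 0 were called against 0.119% of genes and 0 had an unadjusted p below 0.05 against 5.67%, with edgeR also calling 0, and the smallest p was 0.181 for Plin2. In normalised counts no member had LL and PP groups that were free of overlap in males, where 4.07% of genes did, or in females, where 2.66% did. In TPM, a scale added to this count after the values had been seen, 2 members did in males, Plin4 and Mgll, against 6.55% of genes, and 0 in females, against 2.45%. The pooled estimate shares its mice with the comparisons within each sex.

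**Figure D2:**
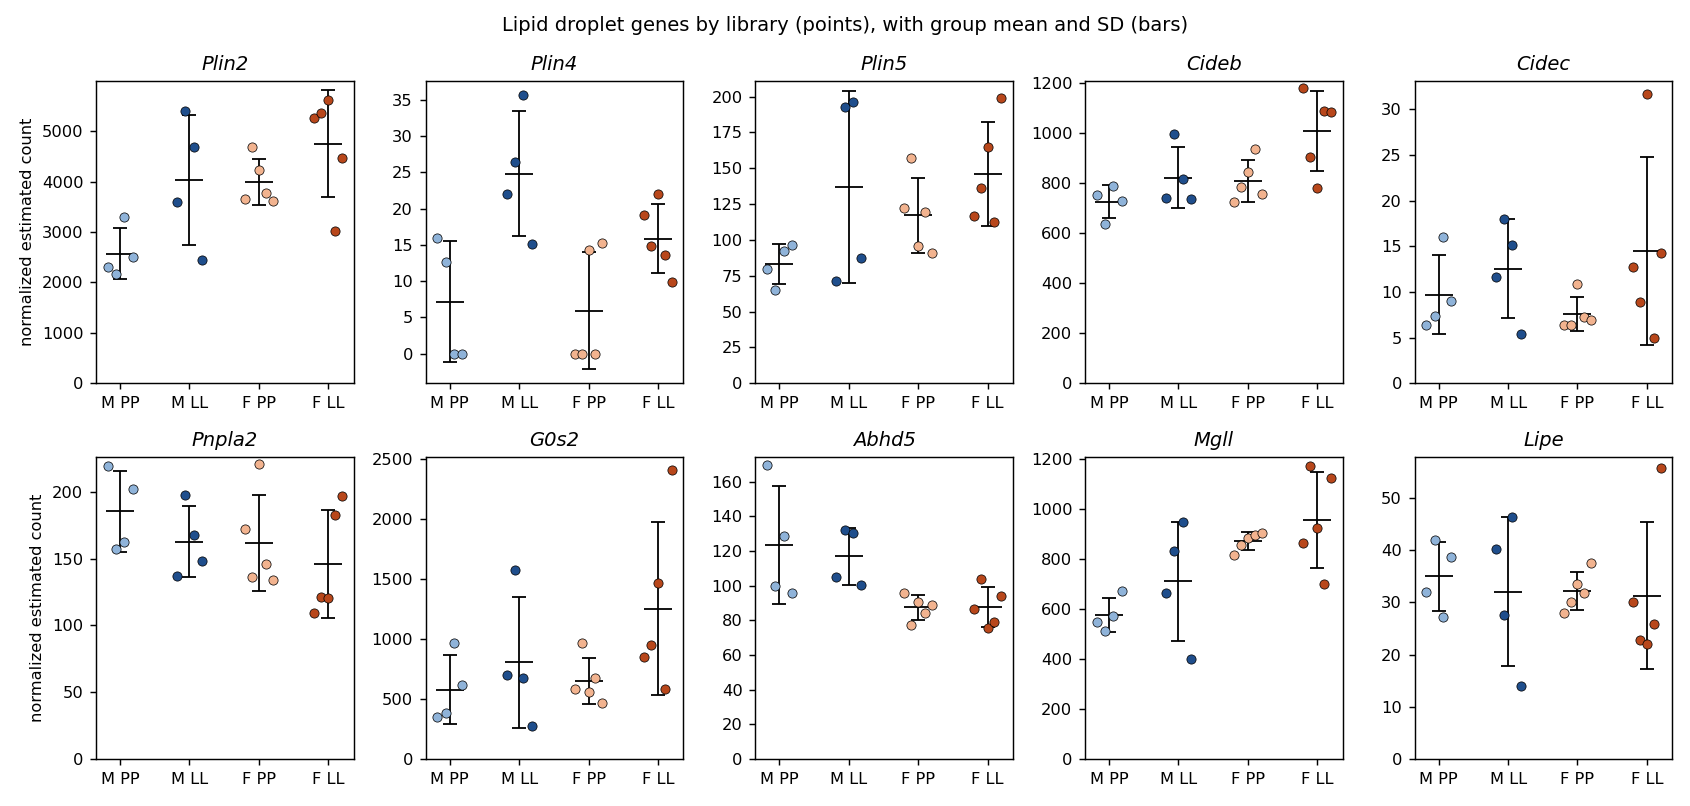
Normalised counts of the 10 members in each library, one panel per gene, by sex and genotype, with the group mean and SD. On this scale the LL and PP ranges overlapped for every member in both sexes, whereas Plin2 and Mgll were higher in all 5 female PP than in all 4 male PP mice.

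Plin2 (chromosome 4, 86565912 to 86588459, minus strand, GRCm39) was the member with the smallest unadjusted p by genotype in males. Its normalised counts were 2306, 2168, 3306 and 2509.8 in male PP mice 1 to 4 and 3606, 5395, 4688 and 2445 in male LL mice 1 to 4. In males 3 LL mice lay above every PP mouse and the fourth lay within the PP range. This gave a log2 fold change of 0.65 ± 0.22 (SE), a fold of 1.57, with a 95% interval of 0.22 to 1.08, an unadjusted p of 0.00334 and a DESeq2 adjusted P of 0.138. It was called only once male LL mouse 4 or male PP mouse 3 was left out, or with the mouse number as a block, among 29 alternatives in which the adjusted P ran from 0.0144 to 0.795. In female PP mice 1 to 5 Plin2 was at 3648, 4683, 4228, 3772 and 3623 normalised counts, and in female LL mice 1 to 5 at 5272, 5366, 5632, 3022 and 4466. In females 3 LL mice were above the PP range, 1 was within it and 1 was below it. The log2 fold change in females was 0.25 ± 0.20 (adjusted P = 0.588), but it was −0.06 once the effective transcript lengths entered as an offset and −0.22 in TPM, so that its sign depended on the scale. Averaged over the sexes it was 0.45 ± 0.15 (adjusted P = 0.0710).

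Plin5 (chromosome 17, 56418446 to 56424610, minus strand) is carried 1515 bases from Plin4 on the same strand. It was at 80.0, 65.0, 92.1 and 96.3 normalised counts in male PP mice 1 to 4 and at 71.3, 193, 196 and 87.5 in male LL mice 1 to 4. LL mice 2 and 3 lay far above every PP mouse, and LL mice 1 and 4 were inside the PP range. In males the log2 fold change was 0.72 ± 0.29 with an unadjusted p of 0.0142 and an adjusted P of 0.288. Female PP mice 1 to 5 had 122, 157, 95.7, 119.6 and 90.9 normalised counts of Plin5, and female LL mice 1 to 5 had 117, 136, 165, 112 and 199. The female groups overlapped over most of their range and the log2 fold change was 0.32 ± 0.26 (adjusted P = 0.601). Averaged over the sexes it was 0.52 ± 0.19 with an unadjusted p of 0.00769 and an adjusted P of 0.119.

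Plin4 (chromosome 17, 56406617 to 56416931, minus strand) was near the limit of detection. Its normalised counts were 16, 12.6, 0 and 0 in male PP mice and 22, 26.4, 35.7 and 15.1 in male LL mice. They were 0, 0, 14.3, 0 and 15.3 in female PP mice and 19.1, 14.8, 22, 13.6 and 9.85 in female LL mice. Plin4 was thus listed at 0 in 2 of 4 male PP and 3 of 5 female PP libraries and in none of the 9 LL libraries. The log2 fold changes were 1.82 ± 1.38 in males and 1.42 ± 1.23 in females (unadjusted p of 0.187 and 0.250), and the differences in mean count, 17.7 and 9.96, had exact permutation p-values of 0.0571 and 0.0794. These zeros are estimates by Salmon: Plin4 shares 3124 of its 7987 exonic bases with Hdgfl2 on the other strand, 44.6% of its words of 31 bases occur in another gene, mostly Hdgfl2, and whether the counting used strand is not given in the sources used here, so reads of the shared stretch cannot be told apart. Summed with Hdgfl2, a measure added after the values had been seen, the mean was 78.4 in male LL against 63.7 in male PP mice (exact permutation test, p = 0.2) and 79.0 in female LL against 56.9 in female PP mice (exact permutation test, p = 0.00794). In females Hdgfl2 alone differed by 12.2 (exact permutation test, p = 0.175), more than the 9.96 of Plin4, so the summed difference is not one of Plin4 alone. In males Hdgfl2 differed by −2.99 (exact permutation test, p = 0.629).

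Markers of adipocytes were examined because perilipins and Lipe are abundant in fat. Of the 8 adipocyte markers, Adipoq, Lep, Retn and Cidea were at 0 in all 18 libraries, Plin1 did not reach 1 normalised count in any library, and the summed level of the list was 19.8 to 27.2 normalised counts in male PP, 14.4 to 34.6 in male LL, and 16.8 to 24.8 with PP and 15.4 to 29.1 with LL in females. Fabp4, the only adipocyte marker with enough reads to be tested, was detected in every library, at 9.90 to 29.2 normalised counts, and is part of that sum. The 6 skeletal muscle markers summed to at most 1.09 normalised counts.

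Among the fusion proteins, Cideb (chromosome 14, 55991507 to 55996099, minus strand) was at 726, 782, 843, 938 and 757 normalised counts in female PP mice 1 to 5 and at 1179.9, 904, 781, 1087 and 1084 in female LL mice 1 to 5. In females 3 LL mice lay above every PP mouse and the other 2 were inside the PP range. The log2 fold change was 0.32 ± 0.13 with a 95% interval of 0.07 to 0.56, an unadjusted p of 0.0123 and an adjusted P of 0.196, and it was called only without female LL mouse 3. It was 0.19 ± 0.14 with fragment length as a term, 0.19 ± 0.14 with the length offset and 0.08 ± 0.18 in TPM. In males the counts were 752, 635, 787 and 729 in PP mice and 739, 995, 815 and 735 in LL mice, and LL mouse 2 was the highest of the 8. The male log2 fold change was 0.18 ± 0.14 (adjusted P = 0.679), and the average over the sexes was 0.25 ± 0.10 (unadjusted p of 0.00952, adjusted P of 0.130). Cideb shares 1136 of its 1672 exonic bases with Nop9 on the other strand, and 74.4% of its words of 31 bases occur in another gene, mostly Nop9, so reads of the shared stretch cannot be told apart. Nop9, as assigned by the same counting, had group means of 55 to 77.5 normalised counts, and the part of shared reads in the values of Cideb was not tested.

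Cidec (chromosome 6, 113400691 to 113412721, minus strand) was measured on few reads. It was at 6.39, 6.36, 10.9, 7.25 and 6.94 normalised counts in female PP mice 1 to 5 and at 12.7, 8.89, 31.7, 4.94 and 14.2 in female LL mice 1 to 5. The LL mice spanned both the lowest and the highest value of the females, and 3 of them lay above every PP mouse. For Cidec in females it came to a log2 fold change of 0.97 ± 0.45 with an unadjusted p of 0.0306, and DESeq2 gave no adjusted P because the mean count was under its independent filter (0.326 without that filter). In males Cidec ranged from 6.4 to 16 in PP and from 5.4 to 18.0 in LL mice.

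No lipase was called by genotype on normalised counts. Pnpla2 (chromosome 7, 141034404 to 141040656, plus strand), the enzyme of the first step of lipolysis, had means of 185 ± 30.2 (SD, n = 4) normalised counts in male PP and 163 ± 26.6 (SD, n = 4) in male LL, and in females of 162 ± 36.3 (SD, n = 5) with PP and 146 ± 40.5 (SD, n = 5) with LL. On this scale the LL mean was below the PP mean in both sexes, by less than the SD within groups, but in TPM the male direction was the opposite, at 18.5 in LL and 15.2 in PP mice, with a log2 fold change of 0.35 in place of −0.18. Lipe (chromosome 7, 25078880 to 25098135, minus strand) had means of 35.0 ± 6.61 and 32.1 ± 14.3 in males with PP and LL and 32.1 ± 3.64 and 31.3 ± 14.1 in females with PP and LL (SD, n = 4, 4, 5 and 5), so the means were nearly level and the LL mice were the more scattered. Mgll (chromosome 6, 88652108 to 88805342, plus strand), which cleaves the last fatty acid from glycerol, was at 547, 514, 573 and 674 normalised counts in male PP mice 1 to 4 and at 665, 831, 950.3 and 399 in male LL mice 1 to 4. Male LL mice 2 and 3 were above and mouse 4 below all PP mice. The log2 fold change of Mgll was 0.30 ± 0.21 in males (adjusted P = 0.633) and 0.13 ± 0.18 in females (adjusted P = 0.791). With the effective transcript lengths as an offset it was 0.64 ± 0.17 in males and was called (adjusted P = 0.0343), while it was 0.19 ± 0.22 with fragment length as a term (adjusted P = 0.947). In TPM every male LL mouse, at 22.5 to 36.3, lay above every male PP mouse, at 11.8 to 20.1, and the log2 fold change was 0.94 ± 0.20 (limma adjusted p = 0.0980). The main transcript of Mgll was Mgll-204, with 97.8% of the counts of the gene. That of Pnpla2 was Pnpla2-201, with 86.8%, which the annotation used here lists as subject to nonsense-mediated decay and not as protein coding, so most of the Pnpla2 counts, and of those in the ratios given for it, are not assigned to a coding transcript.

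G0s2 (chromosome 1, 192949563 to 192956177, minus strand), which binds and inhibits the lipase made from Pnpla2, varied widely among mice of a group. Its normalised counts were 579.7, 968, 554, 677 and 469.9 in female PP mice 1 to 5 and 849, 946, 1464, 585 and 2409.5 in female LL mice 1 to 5. Female LL mice 3 and 5 were above every PP mouse and the other 3 were inside the PP range. Its log2 fold change by genotype was 0.95 ± 0.46 with a 95% interval of 0.05 to 1.84, an unadjusted p of 0.0384 and an adjusted P of 0.300. The estimate was smaller with a term for fragment length, at 0.51 ± 0.51, and in TPM, at 0.43 ± 0.44. In males G0s2 was at 346, 382, 965 and 617 in PP mice and at 699, 1571, 675 and 272 in LL mice, so that among males the LL mice held both extremes. The male log2 fold change was 0.48 ± 0.51 (adjusted P = 0.810), and it was −0.07 without male LL mouse 2 and −0.07 with fragment length as a term.

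Abhd5 (chromosome 9, 122180621 to 122222936, plus strand), the activator of the same lipase, did not differ by genotype beyond its spread, with means of 123 ± 34.2 and 117 ± 16.5 normalised counts in male PP and LL mice and of 87.4 ± 7.0 and 87.8 ± 11.4 in female PP and LL mice (SD, n = 4, 4, 5 and 5). Part of its counts, too, was assigned to a transcript listed as subject to nonsense-mediated decay, Abhd5-201. The shares were 40.1 ± 13.7% and 33.4 ± 7.4% in male PP and LL mice, and 46.5 ± 11.7% and 27.1 ± 18.7% in female PP and LL mice (SD). A difference between these shares was not tested. To set inhibitor and activator against the lipase within each mouse, log2 ratios of normalised counts were compared, which are not ratios of transcript numbers because the genes differ in length. The ratio of G0s2 to Pnpla2 was 1.75, 2.83, 1.33, 2.21 and 1.81 in female PP mice 1 to 5 and 2.96, 2.96, 3.61, 1.68 and 3.61 in female LL mice 1 to 5. In females 4 LL mice were above every PP mouse and LL mouse 4 was among the lower PP mice. The means were 2.96 ± 0.79 and 1.99 ± 0.57 (SD, n = 5 each), a difference of 0.98 (exact permutation test, two-sided, p = 0.0635, adjusted p = 0.508 over 8 tests). In males the difference was 0.53 (exact permutation test, p = 0.4). The ratio of Abhd5 to Pnpla2 differed by 0.14 in males and 0.17 in females (exact permutation tests, p = 0.514 and 0.468), and both differences turned negative when lengths were taken into account.

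**Figure D3:**
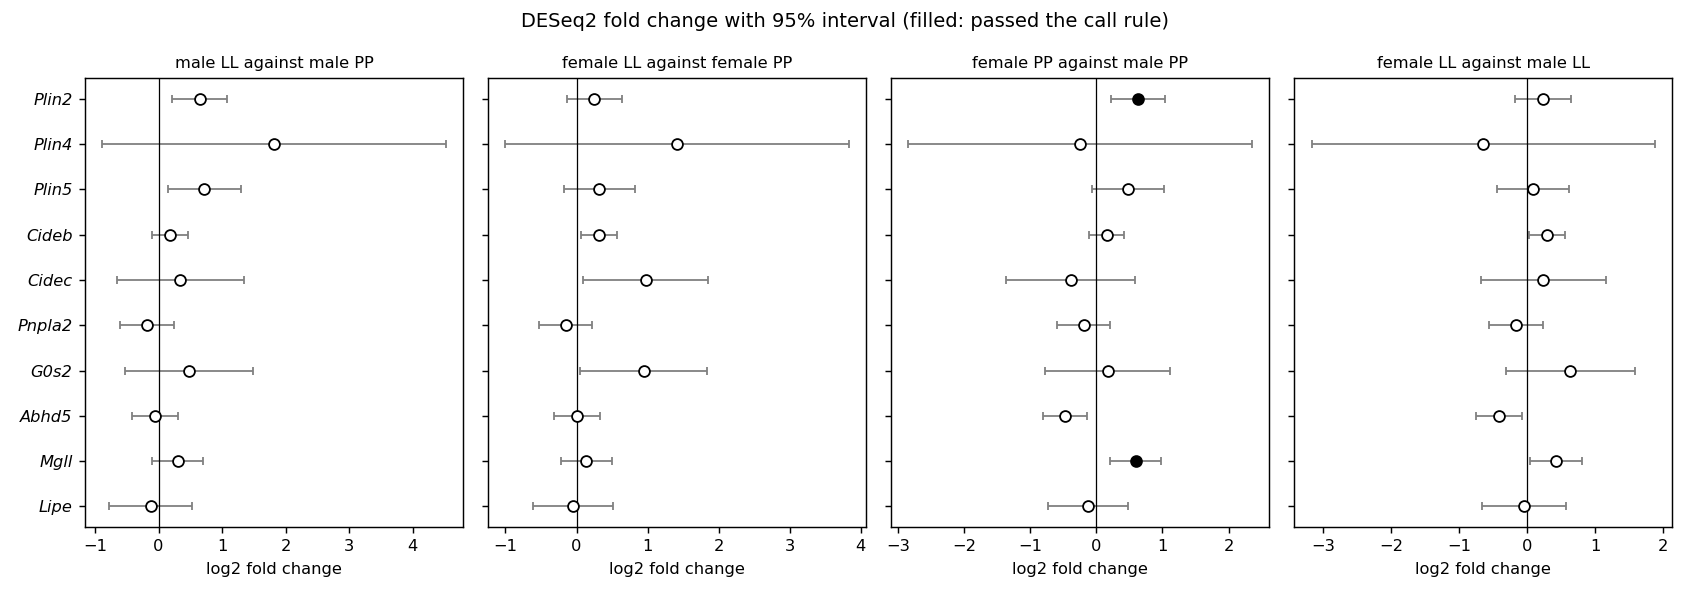
Log2 fold changes of the 10 members in the 4 pairwise comparisons, with 95% intervals from DESeq2 and filled points for called genes. The 2 filled points are Plin2 and Mgll in female PP against male PP mice, at 0.63 and 0.59, and the intervals of Plin4 are the widest.

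The sexes were compared within each genotype. In PP mice, DESeq2 called 2 of 10 members, Plin2 and Mgll, both higher in females, against 6.45% of all genes, and 3 members had an unadjusted p below 0.05 against 17.5% of genes. In normalised counts the same 2 members had groups free of overlap, as did 9.74% of all genes, whereas in TPM these were Plin5, Cideb and Mgll but not Plin2, against 32.2% of all genes. Plin2 was at 3623 to 4683 normalised counts in female PP and 2168 to 3306 in male PP mice, with a log2 fold change of 0.63 ± 0.21 (adjusted P = 0.0392). Mgll was at 816, 857, 886, 896 and 904 in female PP mice 1 to 5, above the 514 to 674 of the male PP mice, and the log2 fold change was 0.59 ± 0.20 (adjusted P = 0.0379). Both calls lay close to the threshold: edgeR gave adjusted p-values of 0.0991 and 0.0900 and called 0 members, each gene was called in 17 of 29 alternatives, and neither was called when any 1 of the 5 female PP mice, male PP mouse 1 or male PP mouse 2 was left out. Abhd5 had lower values in females, at 77.3 to 95.8 in female PP against 95.4 to 169.6 in male PP mice. The log2 fold change of Abhd5 was −0.48 ± 0.17 (unadjusted p of 0.00566, adjusted P of 0.0707). In TPM its sign was the opposite, at 0.16, but the median of all genes on that scale was 0.50, so Abhd5 stayed below it.

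In LL mice, DESeq2 and edgeR called 0 members between the sexes, against 6.12% of genes by DESeq2, and no member had groups free of overlap, against 8.16% of genes in normalised counts and 9.59% in TPM. Cideb, Abhd5 and Mgll had an unadjusted p below 0.05, against 20% of all genes. The log2 fold change of female LL against male LL was 0.29 ± 0.13 for Cideb (adjusted P = 0.181), −0.42 ± 0.17 for Abhd5 (adjusted P = 0.136) and 0.43 ± 0.20 for Mgll (adjusted P = 0.181). For Plin2 it was 0.24 ± 0.21 (adjusted P = 0.579), with −0.20 under the length offset. Plin2 was at 2445 to 5395 normalised counts in male LL and 3022 to 5632 in female LL mice, so that in normalised counts the ranges of the sexes were apart in PP and overlapped in LL mice. In TPM they overlapped in both, and the interaction of genotype and sex was not significant for Plin2 (unadjusted p = 0.181).

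Markers of stellate and endothelial cells moved with the same sex comparison, whereas 0 of 6 Kupffer cell markers were called there or had an unadjusted p below 0.05, and edgeR called 0. In female PP against male PP mice, 5 of 7 tested hepatic stellate cell markers were called higher (Col3a1, Dcn, Ecm1, Lrat and Reln). So were 5 of 6 liver endothelial markers (Clec4g, Dnase1l3, Kdr, Oit3 and Ptprb). Of all genes, 6.45% were called in either direction. Of the 8 hepatocyte markers only Alb was called, higher in females, with a log2 fold change of 0.94. At an unadjusted p below 0.05, 3 of the 8 were higher and 1 was lower, against 17.5% of all genes. The interaction of genotype and sex for Alb was −0.61 ± 0.14 (DESeq2 adjusted P = 0.0180, edgeR adjusted p = 0.613). In LL mice Ecm1 and the Kupffer cell marker Vsig4 were called higher in females, and Ptprb was lower in female LL than in female PP mice, at −0.77 ± 0.21. The 8 stellate markers summed to 472 to 867 normalised counts in male PP, 761 to 1115 in male LL, and 1119 to 1343 with PP and 797 to 1368 with LL in females. The 6 endothelial markers summed to 197 to 393 in male PP, 283 to 417 in male LL, and 426 to 859.9 with PP and 306 to 604 with LL in females. By LL genotype averaged over the sexes Vsig4 was called lower, and this call held in 9 of 28 alternatives (edgeR adjusted p = 0.143). The 6 Kupffer markers summed to means of 742 and 484 in male PP and LL and 849 and 633 in female PP and LL mice. The markers of cholangiocytes, lymphocytes and pancreatic acinar cells had 1 tested gene each, and 0 of them were called. The part of these cells in the values of the members was not tested.

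**Figure D4:**
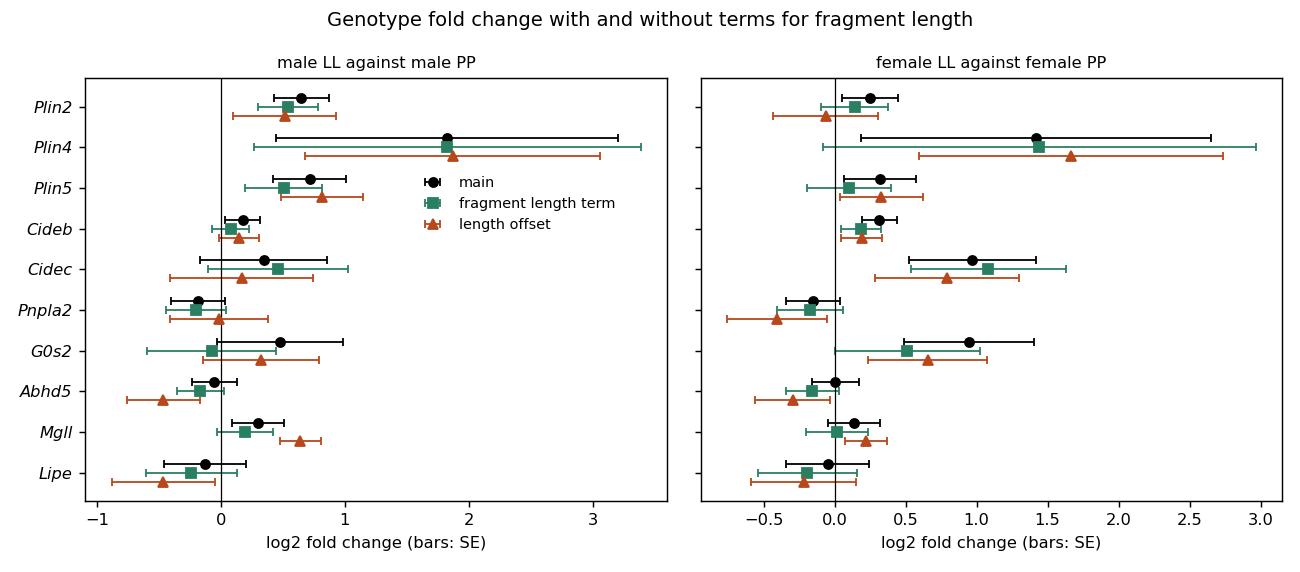
Log2 fold changes of LL against PP for the 10 members in males and females as fitted, with fragment length as a term and with effective transcript lengths as an offset; bars are SE. The estimate for Plin2 in females moved from 0.25 to −0.06 with the offset, and that for Mgll in males from 0.30 to 0.64.

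Covariation of the members among mice of 1 group was described next. After subtraction of group means, 38 of the 45 pairs of members had a positive Pearson correlation over the 18 libraries, with a median r of 0.27. No matching share or median over pairs of all genes is given here, so these values are not set apart from those of other genes. Plin2 with Cidec had the highest, r = 0.80 and rho = 0.77 (permutation tests with 100000 shuffles, p = 9.5e-04 and 0.00129, adjusted over 55 relations 0.0522 and 0.0355), and r was 0.62 without the 2 libraries farthest from the median. Plin5 with G0s2 had r = 0.71 and rho = 0.76 (permutation tests, adjusted p = 0.0844 and 0.0352), with r = 0.92 without the 2 farthest libraries. Plin2 with G0s2 had r = 0.75 and rho = 0.76 (permutation tests, adjusted p = 0.118 and 0.0365), with r = 0.58 without the 2 farthest. No pair passed the adjusted threshold by Pearson's r, and in TPM the correlation of Plin2 with Cidec was 0.37, that of Plin2 with G0s2 0.24 and that of Plin5 with G0s2 0.68. No member passed the adjusted threshold against the fragment length of the library, and the correlation largest in size was that of Cideb, r = −0.46 and rho = −0.41 (permutation tests, p = 0.0678 and 0.110). In normalised counts male LL mouse 4 was the lowest of its group for 8 of the 10 members, all but Plin5 and Pnpla2. Its library had the longest fragments of that group, at 582 bases. In TPM its Plin2, at 554, was not the lowest of the group, whereas its Plin5, at 5.05, was.

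**Figure D5:**
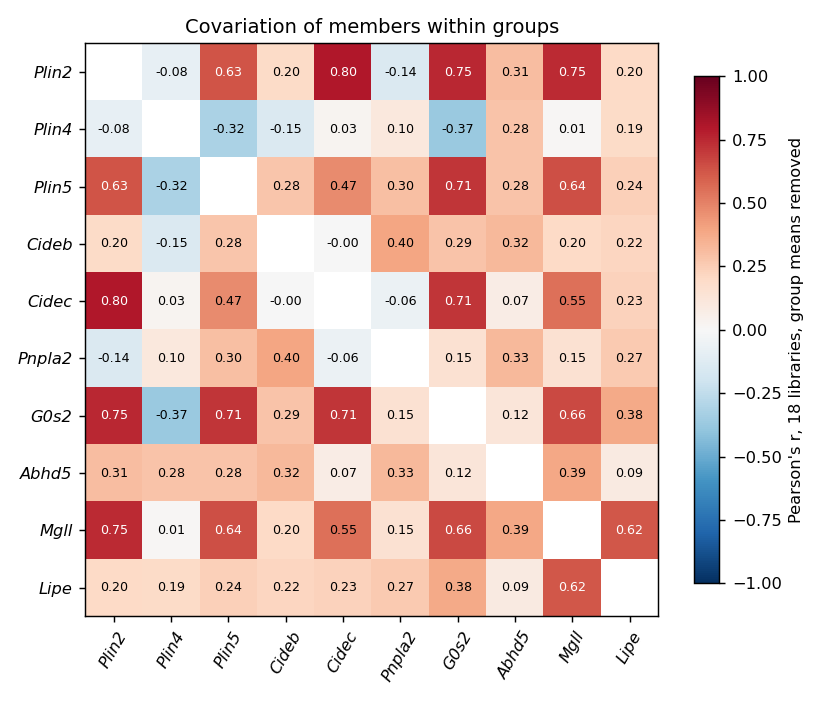
Pearson correlations between the members over 18 libraries after subtraction of group means, on log2 of the normalised count plus 1, as a heat map. Plin2, Cidec, G0s2, Plin5 and Mgll had values of 0.47 to 0.80 with each other, and Mgll with Lipe, outside these genes, had 0.62. Plin4 has values near or below 0 with most members.

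The genes whose pattern over the 18 libraries, with group means removed, was most like that of each member were picked as the 3 highest of the correlations with all genes tested, and these r are a description. For Plin2 they were Adipor2 at 0.87, Nfatc2ip at 0.85 and St7l at 0.84. For Plin5 they were Acaa2, Fzr1 and Phrf1, all at 0.82, and for Plin4 Errfi1 at 0.79, Frs2 at 0.78 and Skp2 at 0.78. Cideb was nearest to Fxyd1 and H2-K1, both at 0.84, and Sin3b at 0.81. Cidec was nearest to Cntrl at 0.84, Txnip at 0.81 and Plin2 at 0.80. G0s2 was nearest to Proser1 at 0.90, Cd320 at 0.88 and Noc2l at 0.88, and Abhd5 to Ap3s1 at 0.84, Chlsn at 0.81 and Rnf19a at 0.80. Among the lipases, Mgll was nearest to Snx9 at 0.89, Upf3a at 0.86 and Sec14l2 at 0.85. Pnpla2 was nearest to Tom1 at 0.82, Fbxo31 at 0.81 and Apeh at 0.80, and Lipe to Gna11 at 0.85, Taok2 at 0.84 and Bicra at 0.81.

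Other genes of the same pathways were counted by list. The shares of all genes to set beside every list are these. By genotype 0.283% were called in males, 0.658% in females and 0.978% averaged over the sexes. An unadjusted p below 0.05 was reached by 7.83%, 13% and 13.8%. Between the sexes 6.45% were called in PP and 6.12% in LL mice. Of 15 tested genes for further coat and fusion proteins, 0 were called in males, where 2 had an unadjusted p below 0.05, and 1 in females, Tmt1b, a membrane methyltransferase found on droplets, with a log2 fold change of 0.50 ± 0.13 (adjusted P = 0.0284). The median of this list was 0.13 in males and 0.12 in females. Clstn3, whose short form is known from adipocyte droplets, was at 1.38 ± 0.43 in females (adjusted P = 0.0773) and rose by 1.05 ± 0.32 averaged over the sexes (adjusted P = 0.0473). The latter call held in 4 of 28 alternatives (edgeR adjusted p = 0.164). In males the smallest unadjusted p-values of the list were those of Hsd17b13, a droplet protein of hepatocytes, at 0.33 ± 0.14, and the trafficking protein Rab1a at 0.27 ± 0.13. Between the sexes in PP mice, Tmt1a at −0.62 ± 0.16 and Clstn3 at −1.43 ± 0.46 were called lower in females (adjusted P = 0.00231 and 0.0307). Tmt1a was at 0.16 in TPM, where the median of all genes was 0.50. In LL mice Tmt1b was called higher in females, at 0.42 ± 0.14, and in 9 of 29 alternatives.

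Of 11 tested genes of droplet biogenesis, 0 were called by genotype in either sex, 1 in males and 2 in females had an unadjusted p below 0.05, and the medians were −0.02 in males and −0.03 in females. The values nearest to a call were those of Tm6sf2, a protein of lipoprotein lipidation, at 0.79 ± 0.32 and of the acyl-CoA synthetase Acsl3 at 0.55 ± 0.29 in males, and of Fitm1, which partitions triglyceride into droplets, at 1.20 ± 0.38 and the phosphatidate phosphatase Lpin1 at −0.75 ± 0.28 in females (adjusted P = 0.0874 and 0.156). Between the sexes, Tm6sf2 was called higher in females in PP and in LL mice, at 1.77 ± 0.30 and 1.26 ± 0.28, in each of 29 alternatives. Fitm1 was called lower in female PP mice, at −1.72 ± 0.40. In female LL mice Soat2, which esterifies cholesterol, was called higher, at 0.60 ± 0.20, and Lpin1 lower, at −1.13 ± 0.29.

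Of 25 other tested lipases and esterases, 1 was called in males, the carboxylesterase Ces1e, which rose by 0.78 ± 0.22 (adjusted P = 0.0471), and 0 in females, where 5 genes had an unadjusted p below 0.05, Ces1e among them at 0.0288. Averaged over the sexes Ces1e rose by 0.61 ± 0.15 (adjusted P = 0.00715). The medians of the list were 0.13 in males and −0.02 in females. The next smallest unadjusted p-values were those of Ces1f in males, at 0.32 ± 0.15, and of Pnpla1 at 0.94 ± 0.32 and the endothelial lipase Lipg at −0.60 ± 0.26 in females. Between the sexes in PP mice 4 were called higher in females, Abhd6, Ces1c, Lipa and Lipc, at 0.65 to 0.68, and 4 lower, Ces2c at −2.28 ± 0.32, Ces3a at −1.12 ± 0.21, Pnpla1 at −1.11 ± 0.34 and Daglb at −0.62 ± 0.19. Of these, Daglb was at 0.13 in TPM, where the median of all genes was 0.50. In LL mice 2 were called higher, Ces1c and the hepatic lipase Lipc at 0.58 and 0.85, and 5 lower, Ces2c, Ces3a, Daglb, Ddhd2 and Ldah, at −1.48 to −0.57. There Daglb was called in 8 of 29 alternatives.

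Of the 12 tested genes of lipolysis signalling, 0 were called in any comparison by DESeq2 or edgeR, and by genotype 0 in males and 1 in females, Gbf1, had an unadjusted p below 0.05. The smallest p-values were those of the phosphodiesterase Pde3b at 0.31 ± 0.16 and the kinase Pkn2 at 0.31 ± 0.16 in males, and Gbf1 at −0.65 ± 0.23 and Hilpda, a further inhibitor of adipose triglyceride lipase, at 0.90 ± 0.52 in females. Of 14 transcription factors of droplet genes, 0 were called in any comparison by either tool. By genotype 1 in males and 4 in females had an unadjusted p below 0.05, against 7.83% and 13% of all genes. Mlxipl, which encodes ChREBP, was at −0.48 ± 0.19 in males (adjusted P = 0.275), Cebpa was at −0.33 ± 0.19 in males with 0.14 in TPM, and Cebpb at 0.91 ± 0.33 and Rxra, the partner of PPARα, at −0.45 ± 0.17 in females (adjusted P = 0.144 and 0.156). Of 20 targets of PPARα, 2 were called in males and both rose, Cyp4a14 by 3.98 ± 0.70 (adjusted P = 1.87e-05) and Ehhadh by 0.84 ± 0.24 (adjusted P = 0.0458). In males 10 of the 20 had an unadjusted p below 0.05, all higher in LL, against 7.83% of all genes. In females 0 were called and 6 had an unadjusted p below 0.05, against 13% of all genes. They were led by Cpt2 at 0.34 ± 0.11 and Acadl at 0.28 ± 0.09, the latter at −0.13 in TPM. The list medians were 0.36 in males and 0.30 in females against 0.00 and 0.01 for all genes tested. Averaged over the sexes 14 of the 20 targets of PPARα had an unadjusted p below 0.05, all higher in LL, against 13.8% of all genes. The list was chosen with earlier results of these data known, so these counts describe the list and do not test it. Of the 20, 3 were called and rose, the thiolase Acaa1b by 0.63 ± 0.17, Cyp4a14 by 2.05 ± 0.47 and Ehhadh by 0.57 ± 0.16. The interaction of genotype and sex was called for Cyp4a14 alone, at −3.87 ± 0.93 (adjusted P = 0.0180), but not by edgeR (adjusted p = 0.386). Between the sexes in PP mice 5 of them were called higher in females by DESeq2 and by edgeR, Cyp4a14 at 6.09 ± 0.66, Cyp4a10 at 2.44 ± 0.58, Acot1 at 1.74 ± 0.46, Vnn1 at 1.28 ± 0.31 and Ehhadh at 0.91 ± 0.22, and in LL mice 2 were, Cyp4a14 at 2.22 ± 0.66 and Vnn1 at 0.95 ± 0.31, the latter by DESeq2 only. By edgeR 0 genes of these lists were called by genotype in either sex or averaged over the sexes. Of the genes of all lists, cell type markers included, that DESeq2 called between the sexes, edgeR called 25 of 28 in PP and 10 of 15 in LL mice.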

How the data were processed

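RNA from 18 mouse livers was sequenced by the authors, 1 library per mouse, from samples that passed an RNA integrity limit. Per the submitters' processing notes and the study's methods, reads were checked with FastQC and assigned with Salmon 1.4.0 to GENCODE M26 transcripts of GRCm39. The deposited tables give, per transcript, the length, the effective length, the estimated count and TPM. The estimated counts are not scaled between libraries, and the TPM values deposited by the authors sum to the same total in each. Transcripts were joined here to genes of the later GENCODE M39 release, which held 137570 of 139225 transcripts and at least 99.76% of the counts of a library, and estimated counts were summed per gene and rounded to whole numbers. Coordinates of genes are those of M39 and those of promoters are of GRCm38.p6, and the 2 were not mixed.

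A gene was tested where 4 or more libraries held 10 or more counts. DESeq2 1.42.0 (R 4.3.3), the tool the study used, was run on all 18 libraries in 1 fit with the 4 groups as levels. An adjusted P left empty by independent filtering was kept empty. Normalised counts are counts divided by DESeq2 size factors. Ratios, correlations and TPM used a log2 scale, with a pseudocount of 1 for the latter 2. Errors of log2 fold changes are SE, and other errors are SD over mice. Single values were compared with two-sided exact permutation tests, and correlations with 100000 shuffles within groups. The scripts were tested on simulated data. With totals of 3794671 to 6613905 counts, genes at a few counts per library, such as Plin4 and Cidec, carry a wide counting error. The p-values set a difference against the variation between libraries. With 1 library per mouse, variation between mice and between library preparations cannot be told apart.

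The members, gene lists and tests were chosen with earlier results of these data known. Other genes named are those of the lists that were called, the 2 of each list with the smallest p by genotype in each sex, and for each member the 3 most correlated genes. Alternatives were edgeR 4.0.16, TMM scaling, other filters, no independent filtering, an offset of effective transcript lengths, fragment length or age as a term, the mouse number as a block, TPM with limma 3.58.1, fits of 2 groups alone and leaving out each library. The sum of Plin4 and Hdgfl2 and the overlap of groups in TPM were added after the data had been seen.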

Additional observations from a re-analysis of the deposited data

Results flagged for a closer look

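In 2 of the 40 groups of normalised counts examined (10 members in 4 groups), 1 mouse stood apart from the rest by Dixon's test, and chance sets apart about 1 in 20 such groups. Cidec was at 10.9 in female PP mouse 3, with the next highest female PP mouse at 7.25, a gap of 0.806 of the range of the group. Lipe was at 55.8 in female LL mouse 5, with the next highest female LL mouse at 30.0, a gap of 0.761 of the range. Lipe was not called in any comparison.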

How the results depend on the processing

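Calls of members rested on few mice. Between male LL and male PP mice, 0 members were called as reported, but 1 with the length offset (Mgll), 1 with the replicate block (Plin2) and 0 to 1 when single mice were left out (Plin2, without male PP mouse 3 or male LL mouse 4). Between female LL and female PP mice the range without single mice was 0 to 1 (Cideb, without female LL mouse 3). Between female PP and male PP mice, 2 members were called as reported, 0 by edgeR, 1 with the length offset (Mgll), 1 with fragment length and 1 with age as a term (Abhd5 in both), 1 with the replicate block (Plin2), 4 in TPM with limma (Plin2, Plin5, Cideb and Mgll) and 0 to 2 without single mice. Between female LL and male LL mice the range was 0 to 1 (Mgll, without male LL mouse 3). Averaged over the sexes, 0 became 1 with the length offset (Mgll), 1 with the replicate block (Plin2) and 0 to 1 without single mice (Plin2 without male PP mouse 3, female LL mouse 4 or male LL mouse 4, and Plin5 without male LL mouse 1). No alternative called a member in the interaction.

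The mouse numbers do not pair the groups: of 25 same-numbered pairs, 3 had deviations correlated above 0.1, with r from −0.17 to 0.16, so the replicate block is not a paired analysis.

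Of the log2 fold changes given as numbers in the text above, the following reversed. G0s2 in males was −0.07 with fragment length as a term and −0.07 to 0.84 without single mice. Plin2 by genotype in females was −0.06 with the length offset and −0.22 in TPM, and Plin2 between the sexes in LL mice was −0.20 with the offset. In TPM, Abhd5 was 0.16, Tmt1a 0.16 and Daglb 0.13 in female against male PP mice, Cebpa was 0.14 and Pnpla2 0.35 by genotype in males, and Acadl was −0.13 in females and −0.04 with the offset. Without a change of sign, Cideb in females went from 0.32 to 0.19 with fragment length or the offset and 0.08 in TPM, and G0s2 from 0.95 to 0.51 with fragment length and 0.43 in TPM. The ratio of Abhd5 to Pnpla2 was −0.45 in TPM, −0.46 with the offset and −0.02 to 0.23 without single mice in males, −0.02 under both in females, and 0.14 under both in female against male LL mice. The median correlation of members was 0.16 in TPM. The cause was not tested. TPM moved the median log2 fold change of all genes by 0.50 in female against male PP mice, 0.21 by genotype in males and 0.20 in female against male LL mice. In TPM the median itself was 0.50 in female against male PP mice, above the values of Abhd5, Tmt1a and Daglb. By genotype in males it was 0.21, above the value of Cebpa and below that of Pnpla2. For the log2 fold changes given as numbers in the text, 2969 values were recomputed. Of these, 2603 kept their direction and their side of the threshold, 325 lost a call, 29 gained one and 12 reversed. Members whose fold change is not printed also changed sign and are not in this count. Abhd5 by genotype ran from −0.39 to 0.08 in females and from −0.46 to 0.12 in males. Plin5 in female against male LL mice ran from −0.13 to 0.48.

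Over all genes, counts of calls moved more. By genotype in males 31 became 3 by edgeR, 53 with the length offset and 0 in TPM. In females 72 became 3 by edgeR, 14 with fragment length, 44 with age, 28 with the offset and 0 in TPM. In female against male PP mice 705 became 4307 in TPM, of which 4223 were higher, against 402 of 705. In female against male LL mice 669 became 432 with fragment length and 451 in TPM, with 382 higher and 69 lower against 364 and 305. Averaged over the sexes 107 became 9 by edgeR, 44 with fragment length, 56 with age and 0 in TPM, and the interaction went from 13 to 0 by edgeR and in TPM.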
